A study of Mus musculus with 24 samples.

Results

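Gene expression was compared between hippocampal neuronal nuclei of mice labelled as lacking both Ogg1 and Mutyh (DKO) and of wild type (WT) mice. The libraries were chosen by their labels in the count table of nuclei sorted for the neuronal protein NeuN (NeuN+), 3 labelled DKO and 3 labelled WT, which makes 6 of the 24 libraries of the series. Of 55254 genes in the table, 30132 passed a filter on low counts and were tested. All mice were male C57BL/6N mice aged 6 months, the DKO animals came from crossing Ogg1-/- with Mutyh-/- mice, and the WT controls carried neither deletion. The study sorted nuclei from snap-frozen hippocampi by NeuN and sequenced their nuclear RNA, to learn how both enzymes shape transcription in neurons and glia. It also holds NeuN+ libraries of each single knockout and NeuN- libraries of all 4 genotypes, and all 12 NeuN+ libraries were fitted together, so the single knockouts share in the low-count filter and the estimate of spread. Animals were pooled before sorting, and the sources differ on how many went into a pool. The study describes its data in general as coming from independent biological replicates, but does not say for these RNA libraries whether each replicate was a pool of its own. The p-values measure the spread between these libraries, part of which may be technical. The sample labels give different lanes for NeuN+ and NeuN- libraries, so lane and fraction cannot be told apart.

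Base excision repair removes damaged bases from DNA, and a DNA glycosylase starts it by cutting a specific base from the sugar backbone. OGG1 removes 8-oxoguanine, the main product of guanine oxidation, while the target of MUTYH is an undamaged base, the adenine of a wrong pair with 8-oxoguanine. Neurons no longer divide but consume much oxygen, and both enzymes act in their nuclei and mitochondria.

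The WT libraries held 67220387, 64817411 and 64759050 counts, and the libraries labelled DKO held 71291148, 76704502 and 81093906. Between any pair of replicates of a genotype, 97.6% to 99.0% of the tested genes had different counts, so no library repeats another. Levels are given as CPM after TMM scaling, which sets libraries equal on the bulk of genes that differ little. Replicates of a genotype had a biological coefficient of variation of 0.0823. In bulk samples, fewer cells of a type and less RNA per cell cannot be told apart.

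The NeuN+ label was checked against marker genes. Rbfox3, which encodes NeuN, had 1354, 1321 and 1366 CPM in WT and 1433, 1671 and 1558 CPM in the libraries labelled DKO. The 8 neuronal markers summed to 4813 ± 149 CPM in WT and 5009 ± 108 CPM in DKO (SD, n = 3), with Syt1 the most abundant. The median log2 fold change of the 8 was nevertheless -0.11, with 6 fitted values below 0. Of the 8, 0 passed an adjusted p under 0.05 (edgeR, quasi-likelihood F test, Benjamini-Hochberg). At an unadjusted p under 0.05, 4 were lower and 1 higher, and DESeq2 called 2 lower. Of all tested genes, 7.51% were lower and 5.98% higher at an unadjusted p under 0.05, and DESeq2 called 1.59% lower and 0.518% higher. Of 12 interneuron markers, led by Adarb2, 11 had fitted values below 0, with a median of -0.23. None of the 12 passed in edgeR's test, 5 were lower and 0 higher at an unadjusted p under 0.05, DESeq2 called 1 lower, and the sums were 1221 CPM in WT and 1198 CPM in DKO. The 13 markers of hippocampal subfields had a median of -0.01, with 0 called by edgeR, 1 lower at an unadjusted p under 0.05 and 1 called lower by DESeq2. Glial markers were present at lower levels. The 6 oligodendrocyte markers summed to 145 CPM in both genotypes, with Mbp the most abundant, but 5 of the 6 had fitted values below 0 and their median was -0.28. The 5 tested microglial markers summed to 78.8 and 80.5 CPM in WT and DKO, led by Cx3cr1, while Tmem119 had between 2 and 7 counts per library. The 6 astrocyte markers, led by Slc1a3, summed to 38.0 and 31.8 CPM, and all 6 had fitted values below 0, with a median of -0.25. The 4 markers of oligodendrocyte precursors, led by Cspg4, summed to 3.57 ± 0.579 and 2.43 ± 0.334 CPM. All 4 had fitted values below 0, with a median of -0.52. The 5 tested endothelial and pericyte markers, led by Pdgfrb, summed to 6.63 and 6.03 CPM, and Cldn5 had 0 to 3 counts per library. The 4 tested choroid plexus markers, led by Kl, summed to 21.6 and 19.5 CPM, with a median log2 fold change of -0.39 that was -0.02 and -1.04 without WT replicates 2 and 3 and -1.16 without DKO replicate 3. Folr1, which was too low to test, had 11, 13 and 7 counts in WT and 3, 3 and 2 in DKO. No glial, vascular or choroid plexus marker passed an adjusted p under 0.05 in edgeR's test or by DESeq2. At an unadjusted p under 0.05, 9 of these markers were lower and 0 higher, beside 7.51% and 5.98% of all tested genes. The 9 were 3 of the 6 oligodendrocyte, 3 of the 4 precursor and 1 of the 6 astrocyte markers, with 1 of the 5 endothelial and pericyte and 1 of the 4 choroid plexus markers. Of the 5 microglial markers 0 were lower.

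The targeted genes were examined first. Ogg1, on chromosome 6 from 113326972 to 113335068 (GRCm38), had 2.54, 3.49 and 3.10 CPM in WT and 3.03, 2.96 and 3.21 CPM in the libraries labelled DKO. The levels of both genotypes overlapped, with a log2 fold change of 0.01 (standard error 0.11, adjusted p = 0.978, edgeR). Mutyh, on chromosome 4 from 116807723 to 116819440, had 1.06, 1.18 and 1.18 CPM in WT and 7.74, 8.39 and 11.1 CPM in the libraries labelled DKO. Every library labelled DKO lay above every WT library, with a log2 fold change of 2.99 (standard error 0.15, adjusted p = 3.06e-08, edgeR). RNA of Mutyh was thus higher where the label says the gene is deleted, and every direction given for DKO rests on the label. The study reports that the animals it sequenced were genotyped a second time, from DNA of the tail. A count is given per gene and not per exon, so it holds no test of the deleted parts. The Mutyh-/- libraries, in which Mutyh had 10.6, 10.7 and 9.06 CPM, were close to the libraries labelled DKO (log2 difference DKO minus Mutyh-/- of -0.15, adjusted p = 0.820, edgeR).

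A gene counts as differentially expressed (DEG) where its adjusted p is under 0.05 and its log2 fold change is beyond 0.5 in either direction (edgeR). In the libraries labelled DKO, 17 genes were higher (0.0564% of those tested) and 74 were lower (0.246%), so that 81.3% of the 91 DEGs were lower. By adjusted p alone, 25 genes were higher (0.083%) and 124 lower (0.412%). An unadjusted p under 0.05 was reached by 4064 genes, 2263 of them lower and 1801 higher, and the median log2 fold change of all tested genes was -0.001. In all 91 DEGs the libraries labelled DKO did not overlap those of WT, which held for 16.8% of the tested genes. Of the 90 DEGs with a position, 49 overlap another annotated gene. Since neither the strand setting nor the handling of reads with several matches is stated for the counting, the values of overlapping, antisense and copied genes are uncertain.

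The count depended on single libraries. Leaving out WT replicates 1, 2 or 3 gave 52, 36 or 37 DEGs, and leaving out libraries labelled DKO replicates 1, 2 or 3 gave 137, 42 or 56. In 34 genes, 11 higher and 23 lower, the DEG thresholds were passed in the full comparison and with each of the 6 libraries left out. All 91 kept the sign of their fold change in each of these 6 comparisons. The share of lower DEGs, 81.3% with all libraries, was 76.9%, 66.7% and 70.3% without WT replicates 1, 2 and 3 and 63.5%, 71.4% and 57.1% without DKO replicates 1, 2 and 3. Without DKO replicate 3, 24 were higher and 32 lower, and without DKO replicate 1, 50 and 87. Which part of the loss came from the smaller number of libraries was not tested.

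DEGs were then grouped by place, with windows and classes chosen after their positions had been seen. Within 20 Mb of Ogg1 on chromosome 6, 15 of 451 tested genes were DEGs (3.33%), 4 higher and 11 lower. Within 20 Mb of Mutyh on chromosome 4, 14 of 645 were DEGs (2.17%), 5 higher and 9 lower. Mid1 with its overlapping genes and with genes grouped with it by their position on chromosome Y, called its copies here, gave 8 DEGs of 10 tested genes. Pseudogenes on chromosome 1 that copy part of the mitochondrial genome gave 7 of 7. The other 29019 genes held 47 DEGs (0.162%), 8 higher and 39 lower. Without WT replicate 2 or 3, 9 genes near Ogg1 were DEGs. Of the 34 genes that stayed DEGs with each library left out, 8 lay near Ogg1, 12 near Mutyh, 8 in the Mid1 class, 1 among the mitochondrial copies and 5 elsewhere.

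**Figure D1:**
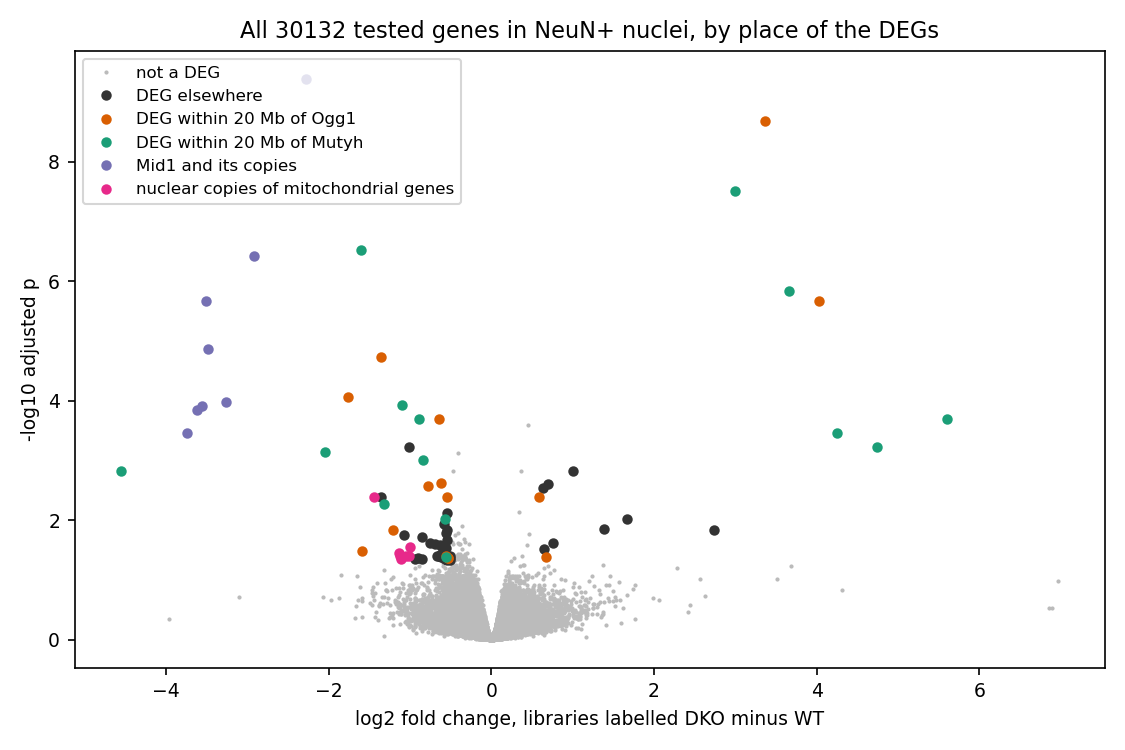
Log2 fold change (horizontal axis) and -log10 of the adjusted p (vertical axis) of 30132 genes in NeuN+ nuclei, with the 91 DEGs coloured by place. The 47 DEGs elsewhere in the genome mostly sit close to both thresholds, while Mid1, Tspan11 and Mutyh stand highest.

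Mid1 had the smallest p of all tested genes. It encodes a ubiquitin ligase that binds microtubules, and lies on chromosome X from 169685199 to 170005736. It had 63.6, 74.0 and 68.0 CPM in WT and 13.4, 13.2 and 15.7 CPM in the libraries labelled DKO, with no overlap and a log2 fold change of -2.28 (standard error 0.08, adjusted p = 4.08e-10, edgeR). G530011O06Rik, Gm15247 and Gm15726 overlap Mid1 and fell with it, by log2 fold changes of -2.92, -3.51 and -3.48 (adjusted p = 3.81e-07, 2.11e-06 and 1.35e-05, edgeR). Mid1-ps1, Gm21748, Gm21860 and Gm21742 on chromosome Y fell by 3.55, 3.26, 3.62 and 3.74 on the log2 scale. They were grouped as copies by position, and their likeness to Mid1 in sequence was not tested. Gm21860 overlaps Mid1-ps1, and Gm21748 overlaps Gm21742, so these are not separate places. Mid1-ps1 had 33.9, 44.0 and 36.4 CPM in WT and 2.62, 2.63 and 4.42 CPM in the libraries labelled DKO. The counts of these 8 genes are uncertain, since reads could have been split or shared between them. None of the 8 differed between the libraries labelled DKO and those of either single knockout at an adjusted p under 0.05 (edgeR). For Mid1 the log2 fold changes against the same WT libraries were -2.25 in Mutyh-/-, -2.36 in Ogg1-/- and -2.28 in DKO. The 4 copies on chromosome Y had log2 differences DKO minus Mutyh-/- of -1.37 (Gm21748), -1.40 (Mid1-ps1), -1.74 (Gm21860) and -1.66 (Gm21742), with adjusted p of 0.340, 0.369, 0.174 and 0.369 (edgeR). Mid1-ps1 had 9.36, 5.64 and 10.4 CPM in Mutyh-/-.

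The promoters of Mid1, Tspan11 and Rab3b, DEGs chosen after their values were seen, are shown from 250 bases before to 50 after the start, from RefSeq for build GRCm38.p6. All lie on the forward strand, at chrX:169684949-169685248, chr6:127887372-127887671 and chr4:108878820-108879119. Capitals mark CG, the letters at which mammalian DNA is methylated, searched on the strand shown, where the other strand reads the same.
Mid1: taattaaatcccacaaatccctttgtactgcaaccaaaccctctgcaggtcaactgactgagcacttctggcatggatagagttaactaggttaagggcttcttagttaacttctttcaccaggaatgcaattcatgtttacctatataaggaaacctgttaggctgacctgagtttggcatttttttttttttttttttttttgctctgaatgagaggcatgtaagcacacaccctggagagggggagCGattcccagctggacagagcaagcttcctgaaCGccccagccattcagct
Tspan11: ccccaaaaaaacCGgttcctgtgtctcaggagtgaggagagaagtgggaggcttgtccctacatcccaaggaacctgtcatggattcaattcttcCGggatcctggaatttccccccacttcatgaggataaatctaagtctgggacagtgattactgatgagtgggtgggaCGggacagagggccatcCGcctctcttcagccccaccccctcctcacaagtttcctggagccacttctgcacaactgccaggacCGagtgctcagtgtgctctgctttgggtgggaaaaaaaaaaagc
Rab3b: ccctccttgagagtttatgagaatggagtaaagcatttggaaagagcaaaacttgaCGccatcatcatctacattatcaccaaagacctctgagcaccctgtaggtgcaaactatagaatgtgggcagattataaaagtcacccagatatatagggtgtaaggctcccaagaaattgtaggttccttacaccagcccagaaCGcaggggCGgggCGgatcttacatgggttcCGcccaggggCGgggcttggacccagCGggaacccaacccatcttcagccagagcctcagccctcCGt
CG occurred 2 times in the Mid1 promoter, 5 times in that of Tspan11 and 8 times in that of Rab3b. Of 15596 promoters of tested genes, 94.1%, 80.6% and 70.7% held at least as many, and the median was 16. All 3 are therefore poorer in CG than most promoters, which is a description of sequence only.

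Near Ogg1, the DEG with the smallest p was Tspan11, a tetraspanin of the cell membrane, on chromosome 6 from 127887589 to 127953977, 14.6 Mb from Ogg1. It had 0.772, 0.854 and 0.829 CPM in WT and 7.41, 9.88 and 8.15 CPM in the libraries labelled DKO. The groups were far apart, with a log2 fold change of 3.37 (standard error 0.13, adjusted p = 2.10e-09, edgeR). Its antisense gene Gm15870 lies within it and rose by 4.03 (adjusted p = 2.11e-06, edgeR), from 3 to 7 counts per WT library to between 81 and 105 counts, so it is uncertain whether its reads are its own. A short distance away, 4921513H07Rik fell by 1.35 and Gm42811 by 1.76 on the log2 scale (adjusted p = 1.85e-05 and 8.54e-05, edgeR). In the Ogg1-/- libraries Tspan11 differed from WT by 3.21, and in the Mutyh-/- libraries by -0.23. It differed between DKO and Mutyh-/- by 3.60 (adjusted p = 2.47e-09, edgeR), and the difference from Ogg1-/- was 0.16 (adjusted p = 1.00, edgeR).

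Other DEGs near Ogg1 were chosen for mention after their values were seen. Rimklb makes a dipeptide of N-acetylaspartate and glutamate in neurons and had 20.7, 19.7 and 19.0 CPM in WT and 11.7, 13.1 and 13.3 CPM in DKO (log2 fold change -0.64, adjusted p = 1.98e-04, edgeR). Ano2, a calcium-activated chloride channel, had 29.2, 26.1 and 24.4 CPM in WT and 15.8, 13.7 and 17.0 CPM in DKO (-0.78, adjusted p = 0.00271, edgeR). Ano2 was also lower than WT in Mutyh-/- (-0.587, adjusted p = 0.0210, edgeR), and DKO minus Mutyh-/- was -0.192 (adjusted p = 0.762, edgeR). Camk1, a calcium- and calmodulin-dependent kinase whose end overlaps Ogg1, had 10.1, 11.6 and 10.3 CPM in WT and 7.64, 6.73 and 7.51 CPM in DKO (-0.55, adjusted p = 0.00407, edgeR), and its count is uncertain. Each of these genes was lower in all 3 libraries labelled DKO. Slc25a18, a mitochondrial glutamate carrier, and Ret, a receptor of the GDNF family, were higher, with log2 fold changes of 0.59 and 0.68 (adjusted p = 0.00407 and 0.0412, edgeR). Slc25a18 still passed with each of the 6 libraries left out, and of these 6 comparisons Ret passed only in that without DKO replicate 1.

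Near Mutyh, Trabd2b had the smallest p after Mutyh itself. It encodes a membrane protease that inactivates Wnt proteins and lies on chromosome 4 from 114406724 to 114615098, 2.19 Mb from Mutyh. It had 45.0, 41.8 and 44.4 CPM in WT and 14.0, 13.4 and 15.7 CPM in the libraries labelled DKO, with no overlap (log2 fold change -1.60, standard error 0.09, adjusted p = 2.99e-07, edgeR). Rab3b, a GTPase of synaptic vesicles, 7.86 Mb away, had 13.4, 14.96 and 13.5 CPM in WT and 5.90, 5.87 and 7.73 CPM in DKO (log2 fold change -1.10, adjusted p = 1.16e-04, edgeR). Its values in DKO were all below those in WT. Elovl1, which lengthens very long fatty acids, had 3.91, 3.79 and 4.57 CPM in WT and 1.28, 1.51 and 2.09 CPM in DKO (-1.32, adjusted p = 0.00542, edgeR), and Cdc20 overlaps it. The long noncoding RNA 1700057H15Rik rose from 1.49, 1.26 and 1.70 CPM to 20.4, 23.6 and 12.3 CPM (3.66, adjusted p = 1.45e-06, edgeR). Beside it, 1700021L23Rik, Gm12916 and 4933435F18Rik had 0 to 2 counts per WT library and 40 to 115, 26 to 48 and 23 to 41 counts in the libraries labelled DKO (adjusted p = 1.98e-04, 3.43e-04 and 5.84e-04, edgeR), and no fold is given against so few counts. Skint1 had 14 to 28 counts per WT library and 0 to 2 in DKO (adjusted p = 0.00148, edgeR).

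Ndufs5, an accessory subunit of respiratory complex I, lies 6.89 Mb from Mutyh. It had 7.77, 7.88 and 8.87 CPM in WT and 4.21, 4.35 and 4.67 CPM in the libraries labelled DKO (log2 fold change -0.89, standard error 0.09, adjusted p = 1.98e-04, edgeR). A pseudogene on chromosome 16, Ndufs5-ps, moved the other way, from 0.847, 0.943 and 0.691 CPM to 3.00, 3.28 and 1.64 CPM (1.67, adjusted p = 0.0096, edgeR), and no longer passed without WT replicate 1, 2 or 3 or without DKO replicate 2. Reads of a gene and its copy can be assigned to either, so both counts are uncertain. Whether the rise and the fall share reads was not tested.

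**Figure D2:**
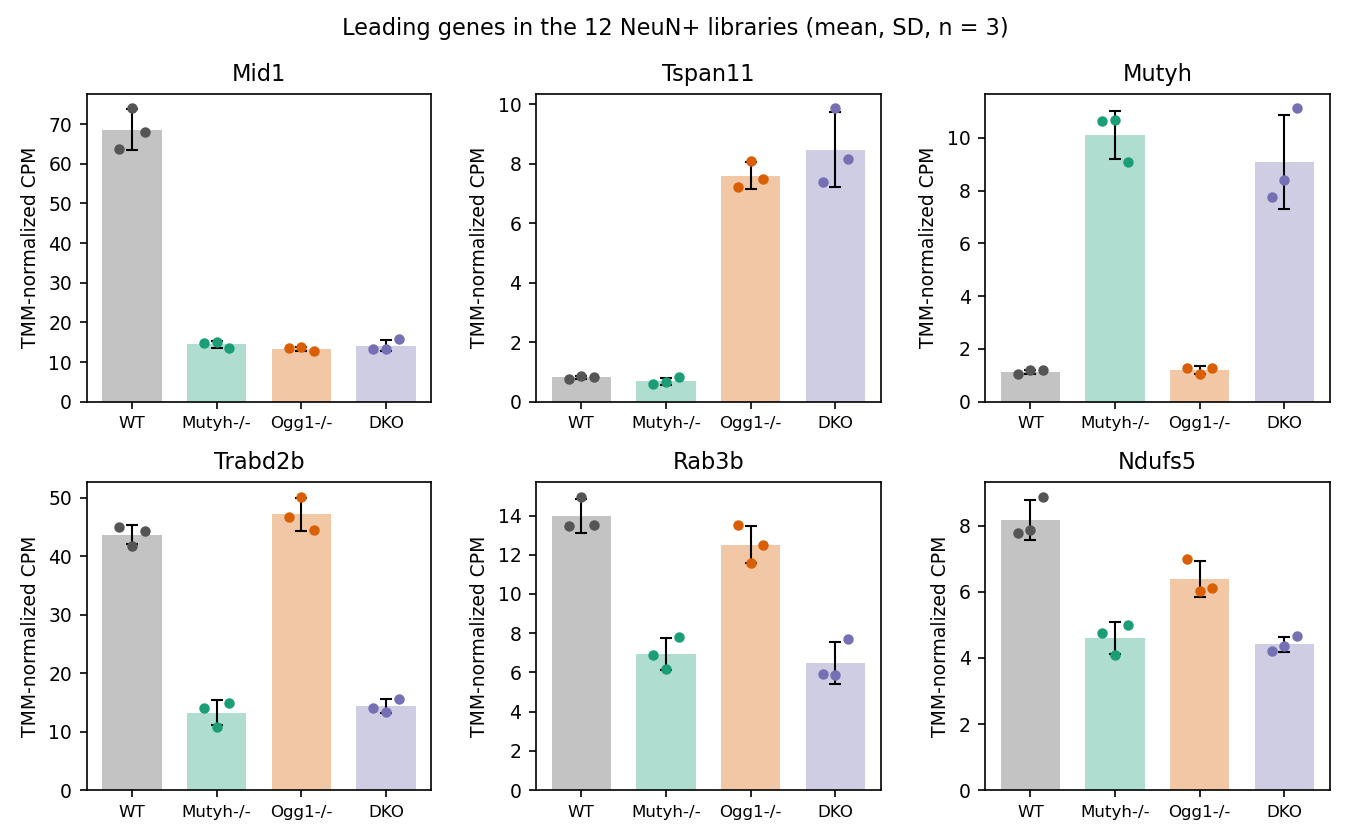
TMM-normalized CPM of Mid1, Tspan11, Mutyh, Trabd2b, Rab3b and Ndufs5 in the 12 NeuN+ libraries, as mean (bar), SD (line, n = 3) and single libraries (points). Mid1 is at 13.2 to 15.7 CPM in the libraries labelled DKO against 63.6 to 74.0 in WT, Tspan11 is higher in the libraries labelled DKO and Ogg1-/- than in the others, and Trabd2b, Rab3b and Ndufs5 are lower in those labelled DKO and Mutyh-/-.

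The libraries labelled DKO were compared directly with each single knockout, which shows where the double label differs from either without WT. Against Ogg1-/-, 65 genes were DEGs (0.216%), 16 higher and 49 lower, and 76 passed by adjusted p alone (0.252%). Of the 65, 14 lay within 20 Mb of Mutyh and 0 within 20 Mb of Ogg1 (edgeR), and 1285 of all tested genes had an unadjusted p under 0.05 in that comparison. Against Mutyh-/-, 42 genes were DEGs (0.139%), 10 higher and 32 lower, and 49 passed by adjusted p alone (0.163%). Of these 42, 11 lay near Ogg1 and 0 near Mutyh (edgeR), and 2066 of all tested genes had an unadjusted p under 0.05. By DESeq2 the 2 comparisons gave 74 and 57 DEGs. Leaving out DKO replicate 3 changed the 42 to 74, and leaving out Mutyh-/- replicate 3 to 72. On chromosome 4 over 40 Mb from Mutyh lay 29 of the 65 and 11 of the 42, many of them copies around Ccl21b, and 0 of the 545 genes tested there were DEGs against WT (edgeR). Ccl21b, for example, was lower in DKO than in Ogg1-/- by -2.61 (adjusted p = 9.45e-09, edgeR), and its log2 fold change against WT was 0.32 (adjusted p = 0.343, edgeR). In other copies DKO replicate 3 stood apart, as in Gm13301 with 16.5, 17.7 and 39.1 CPM and Gm10601 with 0.915, 1.40 and 5.01 CPM in the libraries labelled DKO, whose fitted log2 fold changes against WT were 0.61 and 1.17 (adjusted p = 0.250 and 0.270, edgeR). On chromosome 14, Gm16867, a DEG against Mutyh-/-, had 24.8, 28.3 and 27.25 CPM in WT. It had 243, 183 and 269 CPM in Mutyh-/- and 26.1, 24.9 and 87.8 CPM in DKO. None of the 8 Mid1 class DEGs and none of the 7 mitochondrial copies differed between DKO and either single knockout at an adjusted p under 0.05 (edgeR). These comparisons share the libraries labelled DKO with each other and with the comparison against WT. By the same thresholds, the single knockouts gave 173 (Ogg1-/-) and 129 (Mutyh-/-) DEGs against the same WT libraries, beside 91 for DKO (edgeR).

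Distance from the targeted genes was binned to show how far the local DEGs reach. Around Ogg1, 3 of 131 tested genes within 5 Mb were DEGs against WT (2.29%), as were 2 of 93 between 5 and 10 Mb (2.15%), 10 of 227 between 10 and 20 Mb (4.41%) and 0 of 469 between 20 and 40 Mb (edgeR). Around Mutyh, the counts were 6 of 158 (3.80%), 7 of 176 (3.98%), 1 of 311 (0.322%) and 0 of 450 (edgeR). Of the 26967 tested genes on other chromosomes or without a known position, 59 were DEGs (0.219%). Farther than 40 Mb there were 3 of 605 around Ogg1 (0.496%) and 0 of 545 around Mutyh (edgeR). Why the share of DEGs varied with distance was not tested.

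**Figure D3:**
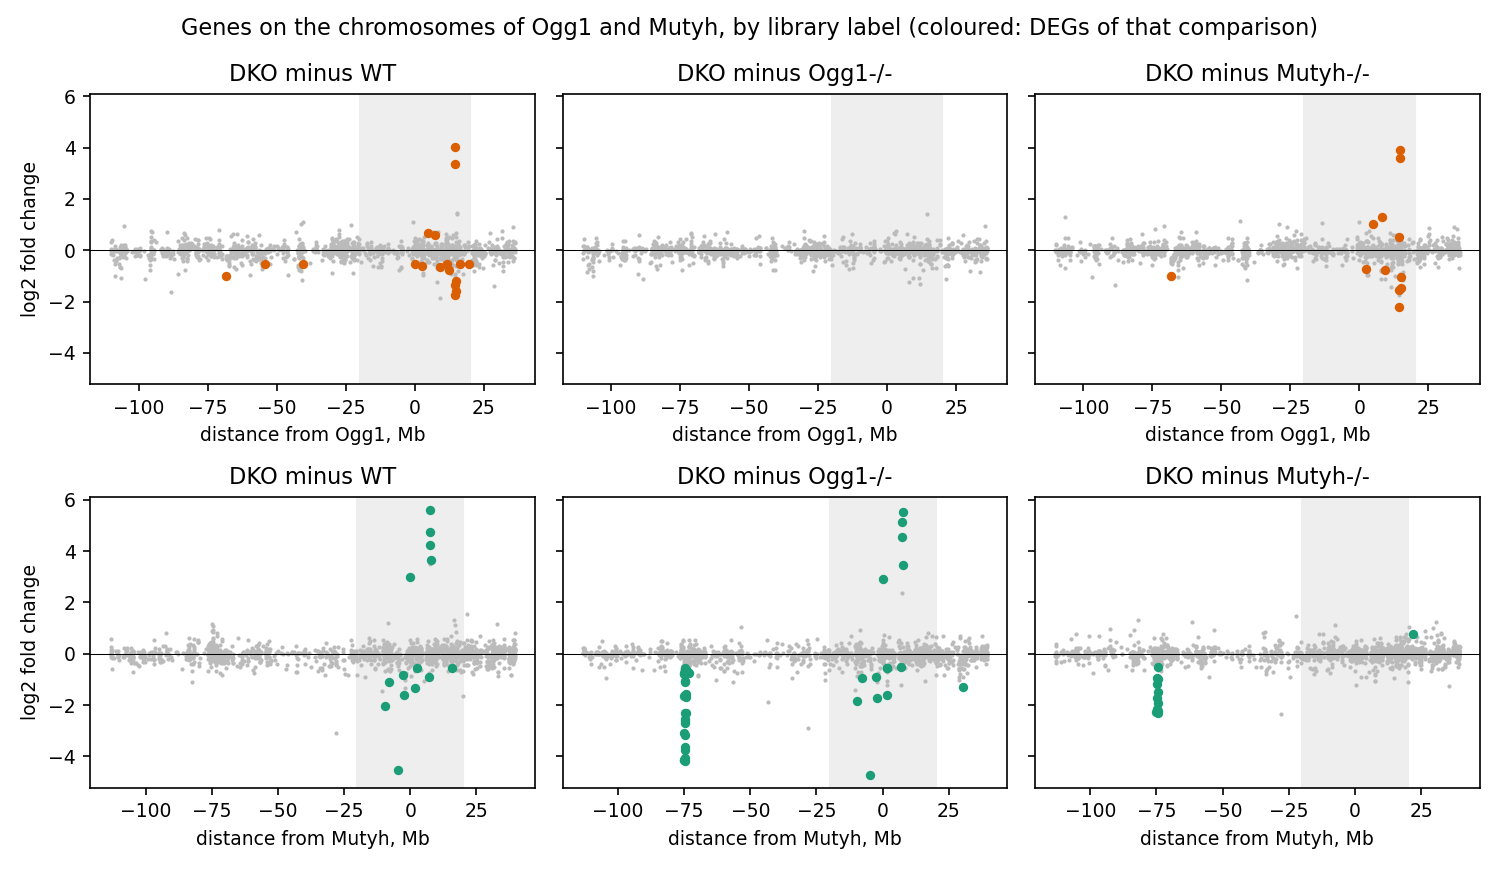
Log2 fold change (vertical axis) of genes on the chromosomes of Ogg1 (top) and Mutyh (bottom) by distance from each gene in Mb, for the libraries labelled DKO against WT, Ogg1-/- and Mutyh-/-; coloured points are DEGs of that comparison and the grey band spans 20 Mb to each side. DEGs near Ogg1 number 15 against WT, 0 against Ogg1-/- and 11 against Mutyh-/-, and those near Mutyh number 14, 14 and 0.

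Pseudogenes on chromosome 1 that carry copies of mitochondrial genes were all lower. Gm28438 had 3.73, 3.15 and 3.07 CPM in WT and 1.38, 1.20 and 1.096 CPM in the libraries labelled DKO (log2 fold change -1.44, adjusted p = 0.00407, edgeR), and it stayed a DEG with each of the 6 libraries left out. Their summed level was 172, 134 and 141 CPM in WT, 76.2, 81.3 and 54.6 CPM in DKO, 87.4, 79.1 and 58.7 CPM in Ogg1-/- and 103, 124 and 65.9 CPM in Mutyh-/-. DKO replicate 3 was the lowest of the 12 libraries in 6 of the 7 genes. Without it, 1 of the 7 was a DEG, without DKO replicates 1 and 2, 7 and 2 were, and without WT replicate 1, 2 or 3, 1 was. The log2 fold changes of the 7 ran from -1.36 to -0.86 without DKO replicate 3 and from -1.35 to -0.88 without WT replicate 1, and all 7 stayed below 0 with each of the 6 libraries left out. No gene whose name starts with mt-, as those of the mitochondrial genome do, is in the count table, and reads from mitochondrial RNA can match these copies, so what was counted is uncertain.

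The 47 DEGs elsewhere were mostly small decreases. At an adjusted p under 0.05, 4 of them differed between DKO and Ogg1-/- and 3 between DKO and Mutyh-/- (edgeR). Against the same WT libraries, 32 of the 47 passed in Ogg1-/- and 11 in Mutyh-/-. The higher DEGs of this class in DKO began with 3 long noncoding RNAs. 9130204K15Rik on chromosome 11 rose from 1.31, 1.21 and 1.55 CPM to 2.65, 2.99 and 2.55 CPM (log2 fold change 1.01, adjusted p = 0.00148, edgeR), and Gm5784 and 2410018L13Rik on chromosome 12 rose by 0.70 and 0.63 (adjusted p = 0.00247 and 0.00286, edgeR). These 3 stayed DEGs with each library left out. Gm12576 on chromosome 11 had 1.86, 1.83 and 1.81 CPM in WT and 16.7, 17.1 and 2.92 CPM in the libraries labelled DKO (2.73, adjusted p = 0.0146, edgeR), so replicate 3 stood apart from the other DKO libraries. Myo1f, an unconventional myosin, had log2 fold changes of 0.76 in DKO and 0.90 in Mutyh-/- against the same WT libraries (adjusted p = 0.0236 and 0.00436, edgeR). In DKO, neither Gm12576 nor Myo1f passed without WT replicate 1, 2 or 3 or without DKO replicate 2.

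Among the lower ones, Cd59a, which protects cells from complement, fell from 1.84, 1.92 and 1.86 CPM to 0.774, 0.672 and 0.751 CPM (-1.35, adjusted p = 0.00402, edgeR). B230112I24Rik, 68.3 Mb from Ogg1 and within Cntnap2, fell by 1.01 (adjusted p = 5.84e-04, edgeR), and both stayed DEGs with each library left out. Rgs4, which speeds the shutdown of G-protein signals, had 15.5, 19.3 and 15.2 CPM in WT and 11.5, 11.6 and 11.3 CPM in DKO (-0.54, adjusted p = 0.00758, edgeR). With Cd59a, B230112I24Rik and Rgs4 apart, most lower DEGs had adjusted p-values above 0.01. In 24 of the 39 lower DEGs of this class DKO replicate 3 was the lowest of all 12 libraries. Without it, 23 genes of this class were DEGs, 9 of them lower, and 11 of the 47 stayed DEGs. Without WT replicates 1, 2 and 3, 14, 5 and 6 of the 47 did, and without DKO replicates 1 and 2, 33 and 9 did. What part the replicates played in these decreases was not tested.

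Gene lists chosen by function were then described by counts and medians, beside the median of -0.001 over all tested genes. Of all tested genes, 0.246% were lower DEGs, 0.412% were lower and 0.083% higher by adjusted p, 7.51% were lower and 5.98% higher at an unadjusted p under 0.05, and DESeq2 called 1.59% lower and 0.518% higher. Of the 79 cytosolic ribosomal protein genes, 78 had fitted values below 0, with a median log2 fold change of -0.29, yet 0 passed an adjusted p under 0.05 in edgeR's quasi-likelihood test, 54 were lower at an unadjusted p under 0.05, and DESeq2 called 21. In 51 of them all 3 libraries labelled DKO lay below all 3 WT libraries, as did 2861 of all tested genes (9.49%). Their summed level was 985, 1012 and 1008 CPM in WT and 847, 922 and 786 CPM in DKO. DKO replicate 3 had the lowest sum of these 6 libraries, and without it the median was -0.23. Against the same WT libraries, the median of these ribosomal genes was -0.352 in Ogg1-/- and -0.182 in Mutyh-/-. Rps27a, for example, had 9.86, 9.91 and 10.6 CPM in WT and 7.25, 8.05 and 6.59 CPM in DKO (-0.47, adjusted p = 0.0623, edgeR). Of 35 translation factors 1 passed, Eif5, with a log2 fold change of -0.35 (adjusted p = 0.0412, edgeR), and their median was -0.13. At an unadjusted p under 0.05 16 of the 35 were lower, and DESeq2 called 6 lower. Eif5 no longer passed when any of the 6 libraries but DKO replicate 1 was left out.

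Genes of energy metabolism were described next. Of 21 genes of glycolysis and lactate, 3 were lower DEGs, 13 were lower at an unadjusted p under 0.05 and DESeq2 called 9 lower. The median was -0.27, and -0.17 without DKO replicate 3. Pgam1, Tpi1 and Aldoa, enzymes of the pathway, fell by 0.58, 0.55 and 0.54 on the log2 scale (adjusted p = 0.0117, 0.0399 and 0.0464, edgeR). Pgam1 had 25.2, 28.0 and 26.6 CPM in WT and 18.4, 19.4 and 15.6 CPM in DKO. Tpi1 lies 11.5 Mb from Ogg1. In the pyruvate and citrate cycle list of 21 genes, Pdha1 (-0.38) and Mdh2 (-0.36) passed an adjusted p under 0.05 (each adjusted p = 0.0394, edgeR), 9 were lower at an unadjusted p under 0.05 and DESeq2 called 8 lower, with a median of -0.09. Of the 38 genes of complex I, Ndufs5 and Ndufb11 (-0.61, adjusted p = 0.0412, edgeR) were lower DEGs, 14 were lower at an unadjusted p under 0.05, DESeq2 called 2 and the median was -0.15. The 35 genes of complexes III to V had a median of -0.23, with 0 called by edgeR, 27 lower at an unadjusted p under 0.05 and 10 called by DESeq2. The 22 antioxidant and glutathione genes had a median of -0.28, with 0 called by edgeR, 10 lower and 1 higher at an unadjusted p under 0.05 and 8 called lower by DESeq2. With 1 of the 6 libraries left out, the number of genes called was 0 or 1 in the glycolysis list, 0 to 2 in that of the citrate cycle and 1 in complex I.

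Cytoskeletal genes had the lowest medians of the lists by function. The 12 tubulins had a median of -0.41, and their summed level was 375, 443 and 417 CPM in WT against 310, 333 and 267 CPM in DKO. Tuba1a and Tuba1b were lower DEGs, by log2 fold changes of -0.54 and -0.52 (adjusted p = 0.0431 and 0.0444, edgeR), while 10 tubulins were lower at an unadjusted p under 0.05 and DESeq2 called 9. Tuba1a and Tuba1b are close copies of each other, and their counts are uncertain. The 12 genes of actin, profilin, cofilin and thymosin had a median of -0.37, with 3 lower DEGs, Cfl1 (-0.61), Tmsb4x (-0.61) and Tmsb10 (-0.54), 8 lower at an unadjusted p under 0.05 and 5 called lower by DESeq2. Cfl1, which cuts actin filaments, had 39.6, 45.6 and 41.6 CPM in WT and 29.1, 30.5 and 23.3 CPM in DKO (adjusted p = 0.0362, edgeR). Of 24 tested chaperones, Hsp90aa1 (-0.58) and Ppia (-0.64) were lower DEGs, 8 were lower at an unadjusted p under 0.05 and DESeq2 called 3, with a median of -0.17, and of -0.09 without DKO replicate 1. With 1 of the 6 libraries left out, 0 tubulins, 0 to 3 genes of the actin list and 0 or 1 chaperones were called, and the tubulin median without DKO replicate 3 was -0.32. In Ogg1-/- and Mutyh-/- against the same WT libraries, the medians were -0.435 and -0.323 for tubulins and -0.389 and -0.225 for the actin list. For chaperones they were -0.263 and -0.003. Of 31 proteasome subunits 0 passed in edgeR, 13 had an unadjusted p under 0.05 and 3 passed by DESeq2, with a median of -0.13.

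Lists of neuronal signalling had medians from -0.06 to 0.07. The 24 genes of the NMDA receptor and its partners had a median of 0.01, with 0 called by edgeR, 4 lower and 3 higher at an unadjusted p under 0.05 and 3 called lower by DESeq2. Among them Calm3, a gene for calmodulin, had a fitted log2 fold change of -0.46 (adjusted p = 0.0879, edgeR). The 12 AMPA and kainate receptor genes had a median of 0.05, with 0 called by either tool and 4 higher and 1 lower at an unadjusted p under 0.05. In the 23 voltage-gated sodium and calcium channels the median was 0.06, with 0 called by edgeR, 10 higher and 1 lower at an unadjusted p under 0.05 and 2 called higher by DESeq2. The 33 potassium channels had a median of 0.07, with 0 called by edgeR or DESeq2 and 6 higher and 1 lower at an unadjusted p under 0.05, which 5.98% of all tested genes reached as higher. The 13 GABA-A receptor genes had a median of -0.06 and none passed by either tool or at an unadjusted p under 0.05. Of 29 genes of synaptic vesicles and release, Napb (-0.33) and Rab3a (-0.53), a vesicle GTPase, were lower (adjusted p = 0.0362 and 0.0439, edgeR), with a median of -0.06. At an unadjusted p under 0.05 10 were lower and 3 higher, and DESeq2 called 4 lower and 1 higher. Napb no longer passed without WT replicate 1 or 2 or DKO replicate 2 or 3, nor did Rab3a without those or WT replicate 3.

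**Figure D4:**
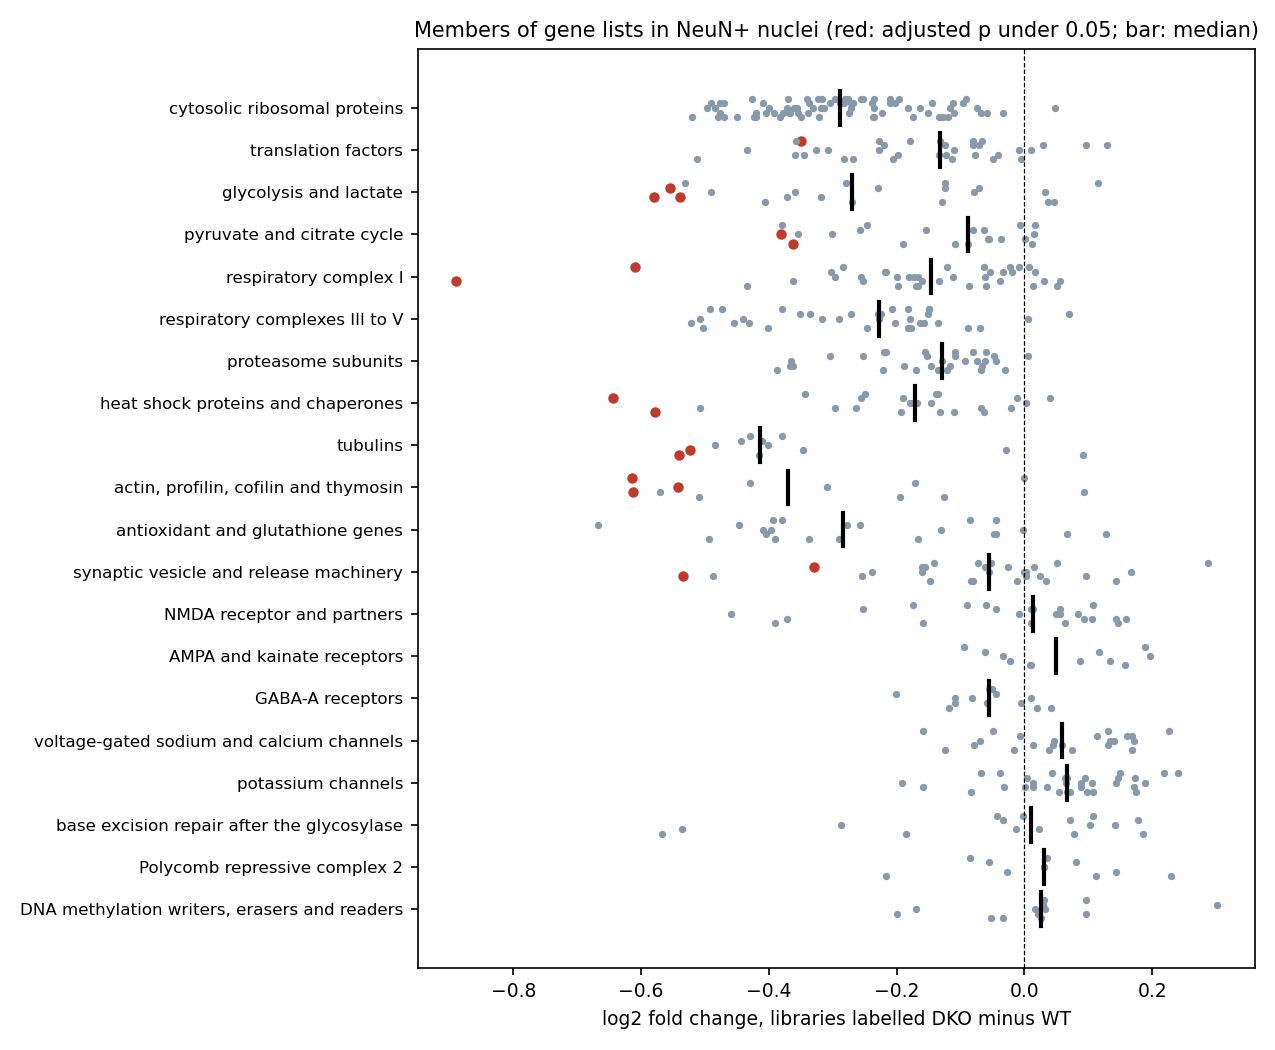
Log2 fold change, libraries labelled DKO minus WT, of the members of 20 gene lists; points are genes, red where the adjusted p is under 0.05, black bars are medians, and the dashed line is the median of all tested genes. The medians run from -0.41 in tubulins to 0.07 in potassium channels.

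Genes of the repair pathway and of chromatin were described in the same way. The 16 genes acting after the glycosylase had a median of 0.01, with 0 called by edgeR, 3 lower and 2 higher at an unadjusted p under 0.05 and 1 called lower by DESeq2. Pcna, the sliding clamp of DNA synthesis, had 2.96, 3.19 and 2.49 CPM in WT and 2.03, 2.08 and 1.72 CPM in DKO (-0.57, adjusted p = 0.0623, edgeR). The 9 other DNA glycosylases had a median of 0.04, with 0 called by either tool and 2 at an unadjusted p under 0.05, and their summed level was 49.7 CPM in both genotypes. The 11 genes of Polycomb repressive complex 2 had a median of 0.03, with 0 called by either tool and 2 at an unadjusted p under 0.05, and the 13 genes of DNA methylation had a median of 0.03, with 0 called and 1 at an unadjusted p under 0.05. The 12 p53 targets had a median of -0.02, which ran from -0.08 without DKO replicate 1 to 0.04 without WT replicate 3. That of the 18 immediate early genes was -0.05 and changed sign with the libraries, with -0.21 and -0.17 without WT replicate 1 and DKO replicate 3, -0.08 without DKO replicate 1, and 0.02, 0.04 and 0.05 without WT replicates 2 and 3 and DKO replicate 2. Neither list held a gene called by edgeR, 0 and 4 had an unadjusted p under 0.05, and DESeq2 called 0 and 1.

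Of the 5 genes that the study names for neurons, 0 passed an adjusted p under 0.05 in edgeR's test, 2 had an unadjusted p under 0.05 and DESeq2 called 1. Grin1, the core NMDA receptor subunit, had 321, 338 and 324 CPM in WT and 348, 333 and 309 CPM in DKO (log2 fold change 0.01, adjusted p = 0.953, edgeR). Hdac4, a histone deacetylase, had 176, 174 and 180 CPM in WT and 182, 187 and 202 CPM in DKO (0.11, adjusted p = 0.325, edgeR). Glis1, a zinc finger factor 9.17 Mb from Mutyh, had 28.7, 28.2 and 27.8 CPM in WT and 36.1, 34.1 and 32.8 CPM in DKO (0.28, adjusted p = 0.163, edgeR). The fitted values of Camk2a and Sema4c were 0.11 and 0.13 (adjusted p = 0.508 and 0.691, edgeR).

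Since many lower genes were short and consisted mostly of exons, protein-coding genes were split by the share of their length that exons cover. The median log2 fold change was 0.013 in the 574 genes with at most 2% exonic length and -0.052 in the 2273 genes with over 50%. Lower DEGs made up 1.06% of the latter (24 genes), 0.348% of the former (2 genes) and 0.0952% to 0.180% of the classes between. In the genes with over 50%, the median against the same WT libraries was -0.077 in Ogg1-/- and -0.055 in Mutyh-/-. By library, the median of the most exonic class relative to the WT mean was -0.078, 0.055 and 0.026 in WT and -0.075, -0.012 and -0.072 in the libraries labelled DKO. WT replicate 1 was thus at the level of DKO replicates 1 and 3, and the genotypes overlapped. Genes with over 50% exonic length took 2.18%, 2.41% and 2.33% of the counts in WT and 2.11%, 2.21% and 2.12% in DKO. The part of the exonic share in the lower DEGs was not tested.

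**Figure D5:**
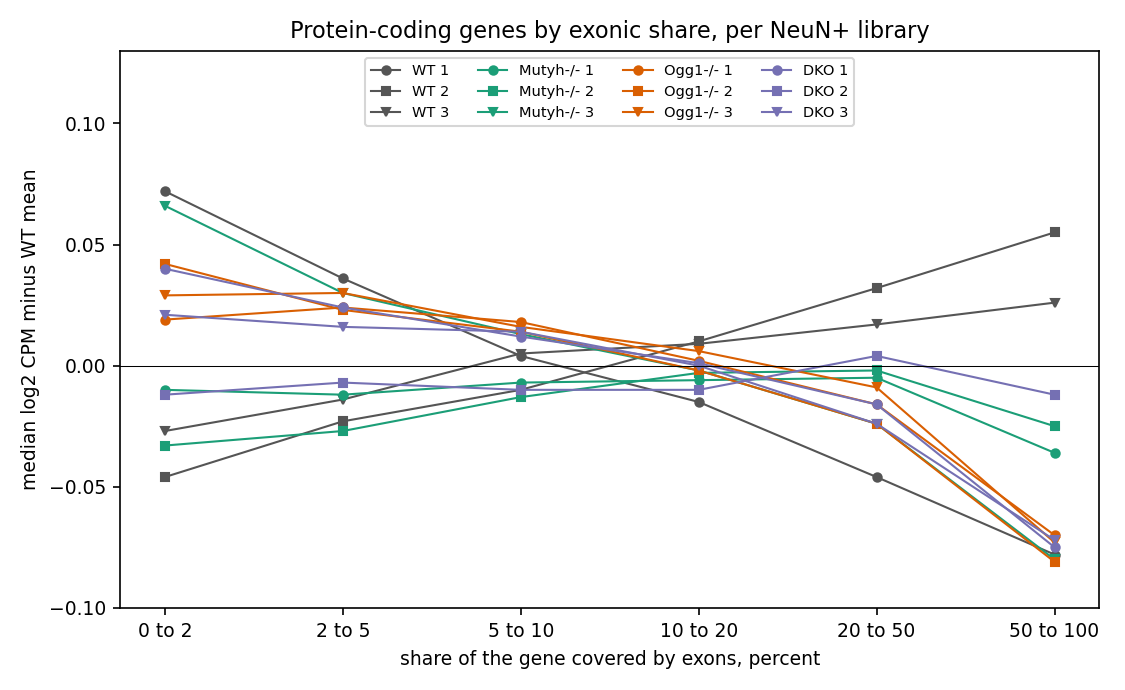
Median log2 CPM relative to the WT mean (vertical axis) of protein-coding genes in 6 classes of exonic share (horizontal axis, percent), with a line for each of the 12 NeuN+ libraries. In the class of 50 to 100 percent, WT replicates 2 and 3 sit at 0.055 and 0.026, and WT replicate 1 at -0.078 beside DKO replicates 1 and 3.

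The same genotypes were compared in NeuN- nuclei, where 57 of 31863 genes passed an adjusted p under 0.05 (0.179%) and 37 were DEGs. Of the 8 Mid1 class DEGs, all 8 had a negative log2 fold change there too, with a median of -2.0 against -3.49 in NeuN+, and 4 passed. The 7 mitochondrial copies had a median of -0.32 in NeuN- and -1.11 in NeuN+. The ribosomal genes had a median of -0.20, those of glycolysis -0.01. Whether the effect of the label differed between fractions was tested directly in all 24 libraries, and 19 of 33523 genes passed an adjusted p under 0.05 (0.0567%, edgeR's quasi-likelihood test of the interaction). Mutyh was among them, with log2 fold changes of 2.99 in NeuN+ and 1.61 in NeuN-, as were Mid1, Tspan11, Trabd2b and Elovl1. Without WT replicates 1, 2 and 3 this test gave 5, 6 and 9 genes, and without DKO replicates 1, 2 and 3 it gave 10, 8 and 58. This test treats the fractions as unpaired. With a replicate block it gave 53 genes, 17 of the 19 among them, without Elovl1 and C630031E19Rik.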

How the data were processed

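RNA of sorted hippocampal nuclei was sequenced as stranded total RNA in 24 libraries of 4 genotypes and 2 fractions, 3 per group. The deposited counts were made by the authors with FastQC 0.11.9, HISAT2 2.1.0 on GRCm38, SAMtools 1.10 and featureCounts, and the strand and multiple-match settings are not stated. Here edgeR 4.0.16 in R 4.3.3 fitted the 12 NeuN+ libraries together, with TMM scaling, filterByExpr and a term per genotype, and its quasi-likelihood F test gave p-values adjusted by Benjamini-Hochberg. Residual degrees of freedom were 8. Differences between fractions were tested in all 24 libraries. CPM per library are TMM-normalized. Gene positions came from GENCODE on GRCm38. The method was tested on simulated data. Genes named by rule were the targeted genes, those the study names for neurons, the 10 higher and 10 lower DEGs with the smallest p and no overlap between groups, and members of lists by p. Members and lists were chosen with earlier results of these data known. Alternatives were other scalings, filters and tests (DESeq2 1.42.0 among them), leaving out each library, and gene subsets. The classes by place, the distance bins, the 20 Mb window and the classes of exonic share were chosen after values were seen.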

Additional observations from a re-analysis of the deposited data

Results flagged for a closer look

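The log2 difference between the libraries labelled DKO and WT in NeuN+ nuclei, minus that in NeuN- nuclei, passed an adjusted p under 0.05 in 19 of 33523 genes (edgeR, interaction, quasi-likelihood F test, 3 libraries per group), and 3150 had an unadjusted p under 0.05. Values are given in that order, followed by the difference in each fraction. Genes on the chromosome of Ogg1 or Mutyh, or Mid1, were Mid1 (-1.620; -2.263 in NeuN+, -0.643 in NeuN-), Gm15870 (3.264; 4.052 in NeuN+, 0.787 in NeuN-), Tspan11 (2.677; 3.386 in NeuN+, 0.709 in NeuN-), 1700057H15Rik (2.374; 3.675 in NeuN+, 1.301 in NeuN-), Mutyh (1.398; 3.009 in NeuN+, 1.610 in NeuN-), Slc25a18 (0.747; 0.607 in NeuN+, -0.140 in NeuN-), Gm44596 (0.917; -0.172 in NeuN+, -1.088 in NeuN-), Wnt5b (0.764; -0.217 in NeuN+, -0.981 in NeuN-), Trabd2b (-2.284; -1.590 in NeuN+, 0.695 in NeuN-), Efcab12 (-0.818; -0.603 in NeuN+, 0.215 in NeuN-), Zfp69 (0.767; 0.166 in NeuN+, -0.602 in NeuN-), Cfap57 (-1.692; -0.671 in NeuN+, 1.021 in NeuN-) and Elovl1 (-1.242; -1.305 in NeuN+, -0.062 in NeuN-). The others were 9130204K15Rik (0.831; 1.022 in NeuN+, 0.191 in NeuN-), Grin1os (0.531; 0.059 in NeuN+, -0.472 in NeuN-), Gm26592 (0.712; 0.047 in NeuN+, -0.665 in NeuN-), S100a10 (-1.210; -0.566 in NeuN+, 0.645 in NeuN-), Icam5 (0.705; 0.056 in NeuN+, -0.649 in NeuN-) and C630031E19Rik (0.520; 0.250 in NeuN+, -0.270 in NeuN-).

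The adjusted p ran from 1.82e-04 for Mid1 to 0.04654 for C630031E19Rik. In NeuN- nuclei labelled DKO, Trabd2b had 15.79, 11.20 and 34.42 CPM, so replicate 3 stood apart. Without WT replicates 1, 2 and 3 the test gave 5, 6 and 9 genes, and without DKO replicates 1, 2 and 3 it gave 10, 8 and 58, keeping 4, 6, 9, 7, 8 and 17 of the 19. The test treats the fractions as unpaired, although NeuN+ and NeuN- libraries with the same genotype and number correlated by 0.009 to 0.354 after removing group means. With a replicate block 53 genes passed, 17 of the 19 among them, while Elovl1 (-1.238, adjusted p = 0.0732, edgeR) and C630031E19Rik (0.513, adjusted p = 0.0556, edgeR) did not. In that test the adjusted p of the 19 ran from 1.38e-05 to 0.0732. Lane and fraction cannot be told apart, and no cause was tested.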

How the results depend on the processing

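The 91 DEGs against WT (17 higher, 74 lower) became 252 (81, 171) with no filter beyond a count above 0, 275 (55, 220) by the likelihood ratio test, 173 (32, 141) by DESeq2, 171 (149 lower) with a replicate block, 140 (121 lower) with only WT and DKO libraries, 51 (5, 46) in protein-coding genes, 38 (11, 27) above a log2 fold change of 1, and 38 (26 lower) under an adjusted p of 0.01. Without genes within 10 Mb of Ogg1 or Mutyh 10 were higher, and within 20 Mb, chosen after seeing the data, 8. Leaving out 1 library gave 36 to 137 DEGs, 11 to 50 higher and 24 to 87 lower. The 65 DEGs against Ogg1-/- became 37 in protein-coding genes. The 42 against Mutyh-/- became 93 with no filter, 76 by the likelihood ratio test, 15 in protein-coding genes and 36 to 74 without 1 library. The 19 genes that differ between fractions became 53 with the replicate block, 32 with no filter and 5 to 58 without 1 library. The fold change of Ogg1 was -0.013 on library totals only and -0.103 to 0.131 without 1 library, and that of Grin1 -0.014 and -0.030 to 0.056, both reversing sign. Of the other gene values, 1324 kept direction and side of the threshold, 44 passed and 299 no longer passed. The cause was not tested. With 3 libraries per group, small differences are limited by the spread between libraries.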
